A study of Mus musculus with 13 samples.

Results

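The zinc finger genes described here were the genes of the AGO peak table whose symbol begins with Zfp or Zbtb. The table named 73 such genes among 4652 genes, and 47 of the 73 had at least 1 exonic peak, a peak whose region label names a UTR or the coding sequence (CDS), among 3365 genes with an exonic peak. The 47 genes, 39 Zfp and 8 Zbtb, held 113 exonic peaks and 1728 tags, which was 0.873% of the 198038 exonic tags. A tag is 1 sequenced RNA fragment that was crosslinked to Argonaute (AGO), and each peak is a window of 80 bases. Of these genes, 16 are named below under a rule on tags, and every other gene named with a Zfp or Zbtb symbol was chosen after its values were seen, among them Zfp36, Zfp217 and Zfp790.

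AGO CLIP crosslinks AGO to RNA with ultraviolet light, so the tags report where AGO, loaded with a microRNA (miRNA), contacted messenger RNA. Cortex came from wild-type C57BL6 mice aged 7 to 8 weeks in 3 groups. Sham animals (4 libraries, numbered 1, 2, 3 and 5) had anaesthesia and exposure of the arteries without a filament. The other libraries came from mice whose right middle cerebral artery was blocked by a filament for 35 min (MCAO) and that recovered for 3 h: contralateral libraries (4, numbered 1, 2, 4 and 5) from the opposite hemisphere and ipsilateral libraries (5, numbered 1 to 5) from the blocked side. A number marks a set prepared from 1 day of surgery. How many animals gave 1 library is not stated, and no RNA level is used here, so a change in tags does not separate RNA level from AGO contact.

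Most proteins with these names bind DNA through C2H2 fingers, short modules that hold a zinc ion and read a few bases each, often in long arrays. Many carry a partner domain, KRAB or BTB (also called POZ), that recruits corepressors to the bound site. Members of the family steer the birth and identity of cortical neurons and silence transposable elements. In AGO biology, a 3′UTR is the usual place of a miRNA target site, and arrays of fingers are known for repeated sequence in the coding region, where repeated seed sites have been described.

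Sequences were taken for 6 miRNAs and 8 stretches under member peaks, because they carry the family matches and the member peaks described below. They were chosen after their values were seen, and other member peaks with a match had as many tags. The seed of let-7 is shown because no member CDS peak matched it. The miRNAs are from RefSeq (GRCm38.p6), 5′ to 3′, with bases 2 to 8, the seed, in capitals.
miR-29a-3p: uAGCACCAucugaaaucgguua
miR-9-5p: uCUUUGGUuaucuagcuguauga
miR-338-3p: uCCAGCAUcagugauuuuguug
miR-181a-5p: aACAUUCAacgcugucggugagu
miR-125b-5p: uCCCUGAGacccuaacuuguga
let-7a-5p: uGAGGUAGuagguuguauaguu

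The 8 transcript stretches below, each 27 bases, 5′ to 3′ on the strand of the gene, are from GENCODE M21 (GRCm38, the assembly also called mm10). Capitals mark the bases complementary to the seed. For miR-125 in Zfp664 they mark 6 such bases and the A that follows.
Zfp664 3′UTR, miR-181: tttaagtagcTGAATGTatatatcagg
Zfp664 3′UTR, miR-125: aatgtatataTCAGGGAggaagaagca
Zfp362 3′UTR, miR-29: gccagaatgtTGGTGCTgctaagaacg
Zbtb18 3′UTR, miR-338: aatttctgaaATGCTGGattatctatt
Zfp644 CDS, miR-29: ccgacattacTGGTGCTaaagaagaac
Zbtb11 CDS, miR-338: ttgcaaaattATGCTGGaaaaagacac
Zfp365 CDS, miR-9-5p: cgacaaactcACCAAAGagttggccca
Zfp180 CDS, miR-9-5p: ctcattgcacACCAAAGaacccacaca
The Zfp664 stretches lie at chr5:124887040-124887066 and chr5:124887052-124887078 on the plus strand. That of Zfp362 lies at chr4:128774167-128774193 on the minus strand, and that in the Zbtb18 3′UTR at chr1:177449148-177449174 on the plus strand. The coding stretches lie at chr5:106638556-106638582 for Zfp644 and chr10:67909378-67909404 for Zfp365, both on the minus strand. Those of Zbtb11 and Zfp180 lie at chr16:56006989-56007015 and chr7:24105154-24105180, both on the plus strand.

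The libraries differed in depth and in kind. Sham replicate 1 had the most tags in peaks (71027) and ipsilateral replicate 5 the fewest (3780). Exonic tags ran from 2750 to 27542. The 3 libraries numbered 1 had 58.1% to 68.7% of their tags outside exons, against 27.2% to 52.7% in the other 10. Between 13 and 41 of the 47 genes had a tag in any 1 library. Values below are tags per 10000 exonic tags of the library unless given as tags. Tags of Hspa1a and Hspa1b, heat shock genes, came to 17.0 to 39.0 per 10000 in ipsilateral replicates 2 to 5, to 0 to 3.33 in the contralateral libraries and to 0 to 0.550 in the sham libraries. Ipsilateral replicate 1 had 0, which allows up to 1.49 per 10000, so this library went apart from its group on that measure. The cause was not tested, which leaves in doubt the label of this library. It is kept as the library labelled ipsilateral replicate 1, every ipsilateral value includes it unless stated, and values without it stand beside those it moves. Without it, edgeR called 11 and 10 genes for ipsilateral against sham and against contralateral, in place of 1 and 0. No member was among them, but only 2 members then had enough tags to be tested, and Zfp423 was not tested. In a fit of all genes without that library Zfp423 was called lower in both comparisons, as given below.

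With all libraries, the summed share of exonic tags on the zinc finger genes differed between groups by less than the spread within them. The share was 101, 74.4, 115 and 73.7 per 10000 in sham replicates 1, 2, 3 and 5. It was 103, 78.0, 57.9 and 91.0 in contralateral replicates 1, 2, 4 and 5, and 123, 76.0, 59.9, 73.3 and 72.7 in ipsilateral replicates 1 to 5. The ranges overlapped in each pair of groups. Means were 90.8 ± 20.2 (SD, n = 4) in sham, 82.5 ± 19.4 (SD, n = 4) contralateral and 81.0 ± 24.4 (SD, n = 5) ipsilateral. Log2 ratios of the mean shares were -0.16 for ipsilateral against sham, -0.03 for ipsilateral against contralateral and -0.14 for contralateral against sham. All were smaller than the pooled SD of the log2 shares, 0.340 to 0.376. Without ipsilateral replicate 1 the first and the next were -0.37 and -0.23. Libraries of the same day of surgery ran otherwise for contralateral against sham, where contralateral was higher in 3 of 3 pairs. The mean of the log2 ratios within pairs was 0.14, where the ratio of the group means gave -0.14. No test was run on this sum, since the genes were chosen with earlier results known.

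Much of the spread came from 1 gene, Zfp423. Without it the shares were 66.2 to 80.3 in sham, 57.9 to 91.0 contralateral and 59.1 to 73.3 ipsilateral, with means of 73.1 ± 5.79 (SD, n = 4), 74.6 ± 13.7 (SD, n = 4) and 69.1 ± 6.14 (SD, n = 5). The log2 ratio of the contralateral to the sham mean then turned from -0.14 to 0.03.

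**Figure D1:**
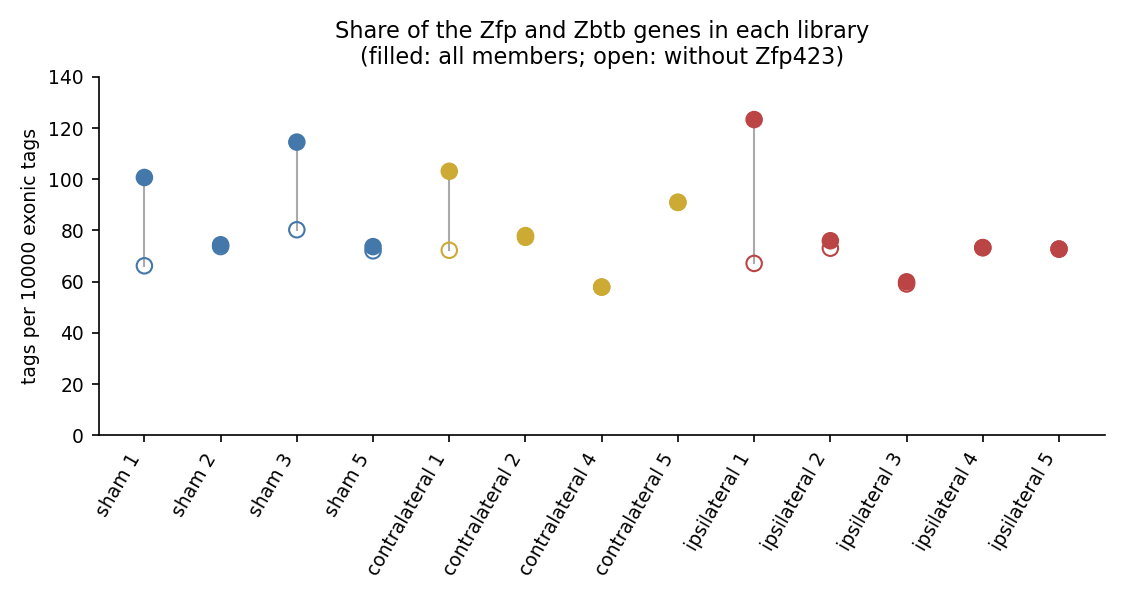
Share of exonic AGO tags on the 47 zinc finger genes, in tags per 10000 exonic tags of each library (y axis), by library (x axis, group and replicate number); filled circles count all 47 genes and open circles leave out Zfp423, joined by a line (an open circle can lie behind a filled one). The groups overlap, and the libraries numbered 1 lie higher with Zfp423 (101 to 123) than without it (66.2 to 72.3).

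Coverage was uneven among the members. The median was 16 exonic tags over all 13 libraries, against 19 in the other genes with exonic peaks. A single exonic peak was found in 25 members, 17 had 20 tags or more, and the 5 most covered held 58.0% of the group's tags. Those 5 were Zfp365 (395 tags), Zfp423 (327), Zbtb16 (114), Zbtb18 (99) and Zbtb7a (67). By region, 975 tags in 74 peaks lay in 3′UTRs, 406 tags in 37 peaks in the CDS and 347 tags in 2 peaks in 5′UTRs.

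**Figure D2:**
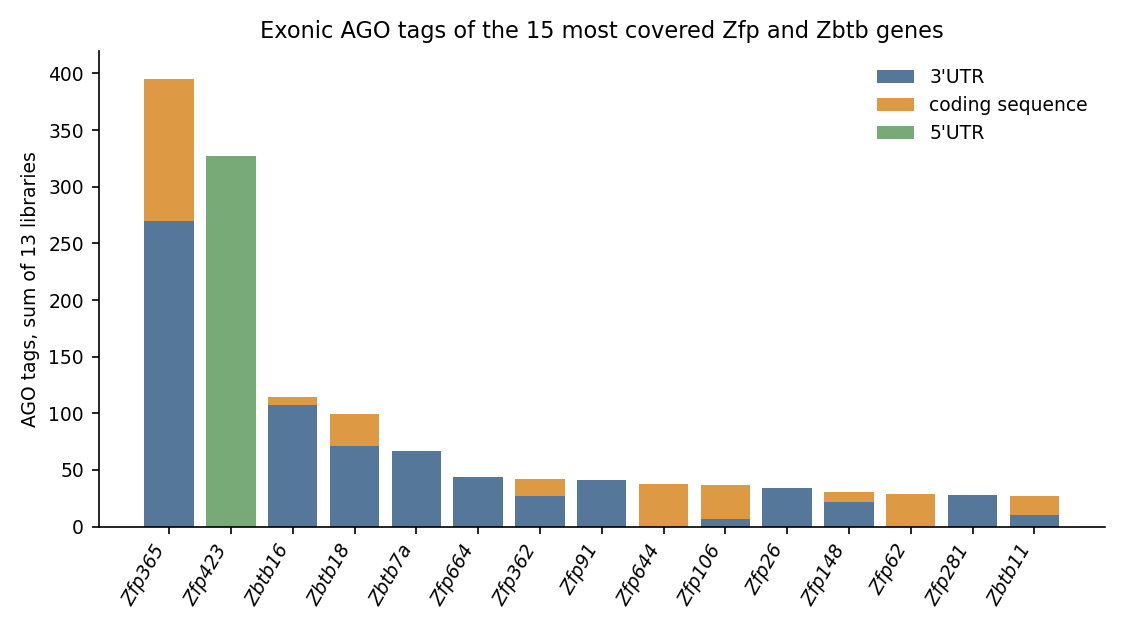
Exonic AGO tags summed over 13 libraries (y axis) for the 15 most covered zinc finger genes (x axis), stacked by region of the peak. Zfp365 (270 of 395) and Zbtb16 (107 of 114) were mostly 3′UTR, Zfp423 was 5′UTR only (327 tags), and Zfp644 and Zfp62 were CDS only.

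Only 3 of the 47 genes had enough tags for the count test, edgeR's quasi-likelihood test with its own filter over 436 genes, and none of the 3 was called (Benjamini-Hochberg adjusted p under 0.05) in any comparison. Over all tested genes, 0.229% were called for ipsilateral against sham, 0% for ipsilateral against contralateral and 0% for contralateral against sham. At an unadjusted p under 0.05 the same test had 0 of the 3 members in each comparison, against 45, 52 and 7 of the 436 genes. DESeq2 called 7, 6 and 0 genes and 0 members. The 3 comparisons share libraries: each group enters 2 of them. P-values measure the spread between these libraries only. Exact permutation p-values, two-sided over libraries, can go no lower than 0.0159 with 5 against 4 libraries and 0.0286 with 4 against 4. Neither they nor the main edgeR fit take account of libraries that share a day of surgery. In tissue of mixed cells, fewer cells of a type and less RNA per cell cannot be told apart.

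Zfp365 was the most covered of the zinc finger genes and the one spread over most peaks, with 21 exonic peaks, 12 in the 3′UTR (270 tags) and 9 in the CDS (125 tags). Some of these peaks overlap, so a tag may be counted in more than 1. With overlapping peaks counted once, Zfp365 lost 4 peaks and had 360 tags. It encodes a DISC1-binding protein known from the centrosome and from oligodendrocyte and neuron development. Its tags were 47, 22, 23 and 45 in sham, 57, 36, 9 and 26 contralateral and 19, 58, 43, 6 and 4 ipsilateral, in order of replicate. Per 10000 exonic tags this came to 18.9, 15.3, 27.2 and 24.7 in sham. The contralateral values were 20.7, 24.0, 15.8 and 30.3, and the ipsilateral values 9.45, 24.1, 18.3, 12.6 and 14.5. The lowest 3 of the 13 libraries were ipsilateral (replicates 1, 4 and 5), but ipsilateral replicate 2 lay inside the range of both other groups. Means were 21.5 ± 5.41 (SD, n = 4), 22.7 ± 6.10 (SD, n = 4) and 15.8 ± 5.64 (SD, n = 5).

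The ipsilateral difference in Zfp365 did not pass the test. The log2 fold change was -0.38 (SE 0.28, edgeR adjusted p = 0.661, exact permutation p = 0.127) against sham and -0.46 (SE 0.28, edgeR adjusted p = 0.451, exact permutation p = 0.143) against contralateral. Contralateral against sham gave 0.08 (SE 0.29, edgeR adjusted p = 0.994, exact permutation p = 0.800). Without ipsilateral replicate 1, the library with no heat shock tags and the lowest Zfp365 value, the first of these moved to -0.22 and the next to -0.26. By region, the CDS peaks had 52 sham, 47 contralateral and 26 ipsilateral tags, while the 3′UTR peaks had 85, 81 and 104, from 65967, 56821 and 75250 exonic tags in all. The best covered CDS peak, chr10:67909377-67909456, had 17, 12 and 6 tags and holds the miR-9-5p match printed above. That split by region was seen in the data and was not tested. Genes outside the 47 also had a lower ipsilateral CDS share. Their mean share of exonic tags in the CDS was 30.2% in sham, 29.3% contralateral and 23.7% ipsilateral. The best covered 3′UTR peak was chr10:67887621-67887700, with 65 tags.

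Zbtb16 encodes PLZF, a BTB zinc finger repressor known for keeping progenitor cells in an undifferentiated state. It had 107 tags in the 3′UTR and 7 in the CDS. Its tags were 19, 9, 5 and 9 in sham, 21, 8, 1 and 11 contralateral and 14, 7, 5, 2 and 3 ipsilateral. Per 10000 the sham libraries held 7.62, 6.26, 5.90 and 4.95, the contralateral 7.62, 5.33, 1.75 and 12.8, and the ipsilateral 6.96, 2.91, 2.13, 4.19 and 10.9. Sham libraries lay inside the spread of the other groups. Means were 6.18 ± 1.11 (SD, n = 4), 6.89 ± 4.64 (SD, n = 4) and 5.42 ± 3.58 (SD, n = 5). The log2 fold changes were -0.44 (SE 0.50, edgeR adjusted p = 0.818, exact permutation p = 0.714) for ipsilateral against sham and -0.61 (SE 0.51, edgeR adjusted p = 0.627, exact permutation p = 0.603) against contralateral. Contralateral against sham was 0.17 (SE 0.50, edgeR adjusted p = 0.994, exact permutation p = 0.743). Without ipsilateral replicate 1 the ipsilateral values were -0.98 (edgeR adjusted p = 0.339) and -1.09 (edgeR adjusted p = 0.257).

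Zfp423, a many-fingered cofactor of SMAD and EBF proteins needed for cerebellar development, had all its 327 exonic tags in 1 peak of the 5′UTR, chr8:87959550-87959629. The tags were 86, 1, 29 and 3 in sham, 85, 1, 0 and 0 contralateral and 113, 7, 2, 0 and 0 ipsilateral. The first library of each group held most of them: 86.9% of the gene's tags lay in the libraries numbered 1, against 36.7% of all exonic tags. By that share it ranked 4 among the 448 genes with at least 100 exonic tags. Sham replicate 3, from another day of surgery, was also high, with 34.2 per 10000 beside 34.5, 30.9 and 56.2 in the libraries numbered 1. Means were 17.8 ± 19.2 (SD, n = 4), 7.88 ± 15.3 (SD, n = 4) and 11.99 ± 24.7 (SD, n = 5), each SD larger than its mean.

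No direction could be assigned to Zfp423. Its log2 fold changes were -0.14 (SE 1.22, edgeR adjusted p = 0.980, exact permutation p = 0.683), 0.62 (SE 1.26, edgeR adjusted p = 0.870, exact permutation p = 0.714) and -0.76 (SE 1.30, edgeR adjusted p = 0.994, exact permutation p = 0.171) for ipsilateral against sham, ipsilateral against contralateral and contralateral against sham. In a fit over all 3365 genes without the filter, leaving out 1 library made calls in opposite directions. Without contralateral replicate 1, ipsilateral against contralateral was 5.31 (edgeR adjusted p = 7.76e-07) and contralateral against sham -5.55 (edgeR adjusted p = 1.48e-07). Without ipsilateral replicate 1, ipsilateral against contralateral was -2.79 (edgeR adjusted p = 0.000889) and ipsilateral against sham -3.47 (edgeR adjusted p = 7.39e-07). Without all 3 libraries numbered 1, contralateral against sham was -4.59 (edgeR adjusted p = 0.00845) in that fit. With the filter, Zfp423 had an adjusted p of 0.433 and 0.886 without contralateral replicate 1 and was not called.

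The 44 other members were below the filter, so their values come from the fit without it, an alternative chosen after that was seen. Over 3365 genes this fit called 0.0594% for ipsilateral against sham, 0.0594% for ipsilateral against contralateral and 0% for contralateral against sham, and called 0 of the 47 members in each. At an unadjusted p under 0.05 it had 4, 2 and 2 of the 47 members, against 329, 336 and 215 of the 3365 genes. DESeq2 without the filter called 0, 6 and 0 genes, none of them a member, with 1, 1 and 0 members at an unadjusted p under 0.05, against 83, 107 and 31 of the 3365 genes.

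Zfp62, a gene with 25 fingers in its translated transcript, gave the smallest p among the members. Its tags, all in the CDS, were 7, 0, 0 and 5 in sham, 6, 3, 4 and 3 contralateral and 0, 1, 0, 0 and 0 ipsilateral. Every contralateral library was above every ipsilateral library, while sham overlapped both. Ipsilateral against contralateral was -3.79 on the log2 scale (SE 1.05, edgeR adjusted p = 0.130), which did not pass, and ipsilateral against sham was -3.05 (SE 1.09, edgeR adjusted p = 0.312). Pooled over libraries, the contralateral rate was 21.2 times the ipsilateral rate (95% counting interval 3.29 to 889), and intervals of this kind cover counting error only. They were computed for a few members only, among them those picked for groups that do not overlap, so they are no test of a difference.

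The Zfp62 count includes overlapping peaks. Its peaks chr11:49215183-49215262 (11 tags) and chr11:49215231-49215310 (12 tags) share 32 bases and had equal tags in 12 of 13 libraries. With overlapping peaks counted once, Zfp62 had 7 sham, 10 contralateral and 1 ipsilateral tags, a log2 fold change of -3.07 against contralateral (SE 1.09, edgeR adjusted p = 0.271) and a pooled ratio of 13.2 (1.88 to 574). The adjusted p was 0.0650 with DESeq2 size factors in edgeR and 0.781 with a replicate block.

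Zfp362 and Zfp281 were the other members whose ipsilateral and contralateral libraries did not overlap. Zfp362 tags were 1, 2, 3 and 6 in sham, 10, 6, 2 and 3 contralateral and 2, 2, 5, 0 and 0 ipsilateral. Means were 2.16 ± 1.52 (SD, n = 4), 3.66 ± 0.235 (SD, n = 4) and 0.790 ± 0.877 (SD, n = 5) per 10000. The log2 fold change of ipsilateral against contralateral was -1.54 (SE 0.72, edgeR adjusted p = 0.410), with a pooled contralateral to ipsilateral ratio of 3.09 (1.36 to 7.66). That interval covers counting error only, in a gene picked because these groups do not overlap. The 3′UTR held the difference in tags (7 sham, 17 contralateral, 3 ipsilateral), while the CDS had 5, 4 and 6, a split seen in the data and not tested. In its 3′UTR peak chr4:128774135-128774214, which holds the miR-29 match printed above and an overlapping miR-15/16 match, the groups had 3, 8 and 2 tags.

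Zfp281, a repressor known from pluripotent stem cells, ran the other way, with all 28 tags in the 3′UTR. Its tags were 4, 4, 1 and 0 in sham, 3, 0, 0 and 1 contralateral and 6, 3, 4, 1 and 1 ipsilateral. Ipsilateral libraries were higher than contralateral ones, with means of 2.33 ± 0.970 (SD, n = 5) against 0.564 ± 0.652 (SD, n = 4), and sham lay between at 1.39 ± 1.15 (SD, n = 4). The log2 fold change was 1.48 (SE 0.90, edgeR adjusted p = 0.564). It was 2.45 without contralateral replicate 1, 1.08 without contralateral replicate 2 and 1.15 without ipsilateral replicate 1. The pooled ratio of 2.83 had a counting interval that included no difference (0.902 to 11.7).

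Counts of members whose groups do not overlap stood beside those of all genes. For ipsilateral against sham, 2 of the 47 members did not overlap, both lower (Zfp248 and Zfp287), against 2.59% of the 3365 genes. For ipsilateral against contralateral it was 3 of 47, with Zfp281 higher and Zfp362 and Zfp62 lower, against 1.78% of genes. For contralateral against sham it was 1 of 47, Zfp287, against 2.64% of genes. The members' shares were 4.26%, 6.38% and 2.13%. Without the libraries numbered 1 the last count went from 1 to 4 of 47 (8.51%), with Zfp180, Zfp275, Zfp287 and Zfp423 lower, and that of all genes to 8.97%. Without ipsilateral replicate 1 the members of the first and the next count were the same, against 5.11% and 3.51% of genes. Zfp287 had 2, 1, 1 and 1 tags in sham, 0 in every contralateral library and 1, 1, 0, 0 and 0 ipsilateral, so single tags decided these orders.

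Directions of mean share were mixed among the members. For ipsilateral against sham 24 members were higher and 23 lower, for ipsilateral against contralateral 25 were higher and 21 lower, and for contralateral against sham 19 were higher and 28 lower. The median log2 ratios over the members were 0.04, 0.33 and -0.62, against -0.09, 0.01 and -0.10 over all genes with exonic tags. In the 17 members with 20 tags or more, 8 were higher and 9 lower, 8 were higher and 9 lower, and 9 were higher and 8 lower. Their median log2 ratios were -0.19, -0.07 and 0.02, against -0.08, -0.01 and -0.03 for all genes with 20 tags or more.

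Among the remaining BTB members, Zbtb18, a repressor needed for the maturation of cortical projection neurons, had 71 tags in the 3′UTR and 28 in the CDS. Its tags were 8, 8, 1 and 6 in sham, 15, 8, 3 and 7 contralateral and 12, 18, 8, 4 and 1 ipsilateral. Means were 3.31 ± 1.79 (SD, n = 4), 6.05 ± 1.41 (SD, n = 4) and 5.77 ± 2.23 (SD, n = 5), and the log2 fold change of ipsilateral against sham was 0.68 (SE 0.54, edgeR adjusted p = 0.730). Zbtb7a, a repressor of fetal globin and a regulator of blood cell fate, had 67 tags, all in the 3′UTR. They were 6, 7, 2 and 5 in sham, 7, 3, 0 and 3 contralateral and 7, 16, 9, 2 and 0 ipsilateral, and the groups overlapped. Zbtb11 had 9 tags in each group.

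Zfp664 had 44 tags, all in the 3′UTR, and few of them in sham. They were 1, 3, 0 and 2 in sham, 9, 3, 1 and 4 contralateral and 7, 3, 10, 1 and 0 ipsilateral. Libraries of MCAO mice and of sham mice overlapped. The log2 fold change was 1.47 (SE 0.77, edgeR adjusted p = 0.493) for ipsilateral and 1.56 (SE 0.80, edgeR adjusted p = 0.668) for contralateral against sham, which share the sham libraries. The pooled ratios were 3.07 (1.20 to 9.29) and 3.29 (1.24 to 10.2), intervals that cover counting error only. Its best covered peak with a match, chr5:124887018-124887097, had 2 sham, 13 contralateral and 14 ipsilateral tags and holds the miR-181 and miR-125 matches printed above.

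**Figure D3:**
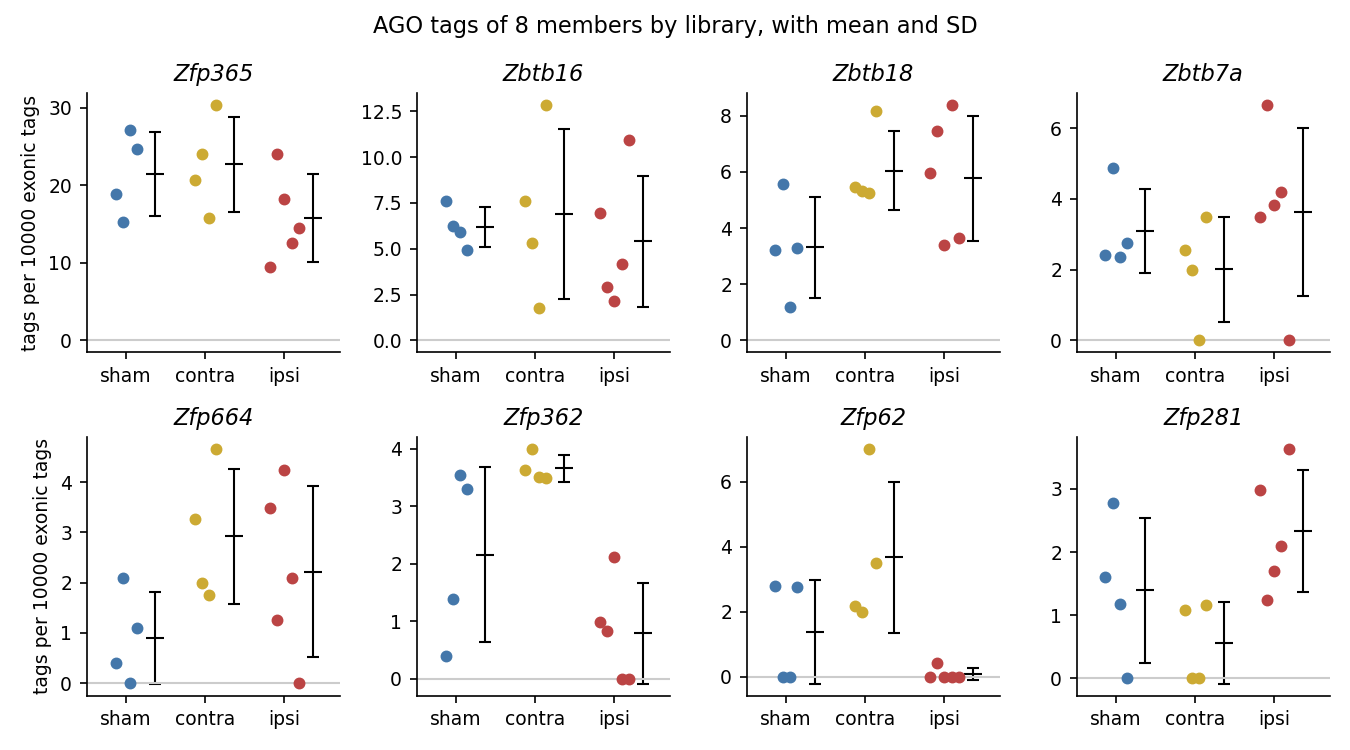
Tags per 10000 exonic tags (y axis, its own scale in each panel) of 8 zinc finger genes, by group (x axis); points are libraries, and the mark beside them is the mean with the SD. Every contralateral point of Zfp362 and Zfp62 is above every ipsilateral one, the reverse holds for Zfp281, and the groups of the other 5 genes overlap.

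The other named members had few tags and no difference that passed. In sham, contralateral and ipsilateral libraries, Zfp91, an atypical ubiquitin ligase, had 14, 9 and 18 tags, and Zfp644 had 19, 6 and 13. Zfp106, an RNA-binding protein needed by motor neurons, had 12, 12 and 13. Zfp26 had 16, 10 and 8, Zfp148, a transcription factor of GC-rich promoters, 8, 9 and 14, and Zfp180 7, 2 and 7. Zfp36 (tristetraprolin), which binds AU-rich elements and promotes decay of inflammatory messages, had 0, 2 and 4 tags. The 0 in sham allows up to 0.455 per 10000, and its log2 fold change of 2.92 (edgeR adjusted p = 0.407) depends on the prior count of the fit. Zfp280b and Zfp758, the other members at an unadjusted p under 0.05 for ipsilateral against sham, had adjusted p of 0.355 each.

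The C2H2 pattern was found in most but not all of the 47 genes. It does not by itself show that a gene is a transcription factor, since Zfp91 and Zfp106, described above by other roles, hold it too. Translated GENCODE transcripts held the pattern in 44, with a median of 7 fingers per gene. It was not found in Zfp365, Zfp36 and Zfp36l1, and the last of these, like Zfp36, is an RNA-binding protein with CCCH fingers. A short KRAB pattern, searched in the first 150 residues only, was found in 6 genes. These together had 81 exonic tags, 24.7% of them in the CDS. The 8 Zbtb genes had 366 tags, 16.1% in the CDS, and the other 33 genes had 1281, with 25.5%. Those 33 may include KRAB genes that the pattern missed, so this is a split by pattern and not by KRAB class.

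CDS peaks were not gathered on the fingers. In 18 genes with fingers, 25 CDS peaks with 258 tags could be placed, and 6 peaks with 46 tags (17.8%) were centred in a finger, where fingers made up 25.5% of the CDS when genes were weighted by tags. Between the first and the last finger lay 11 peaks with 36.8% of the tags, against 51.5% of the CDS. Before the first finger lay 12 peaks and after the last 2. In genes with 5 or more fingers, 23.8% of 193 tags were centred in a finger, against 30.7% of the CDS. The 2 overlapping peaks of Zfp62 were centred at residues 47 and 63, before its array, and the remaining one at residue 684. The Zfp180 peak with the miR-9-5p match was centred in a finger at residue 335. The Zbtb11 peak with the miR-338 match was centred at residue 943, after its last finger, which ends at residue 934. These values describe positions and were not tested, and finger sequences can resemble each other, so reads may be hard to place. How reads with several matches were treated is not given in the sources used here.

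**Figure D4:**
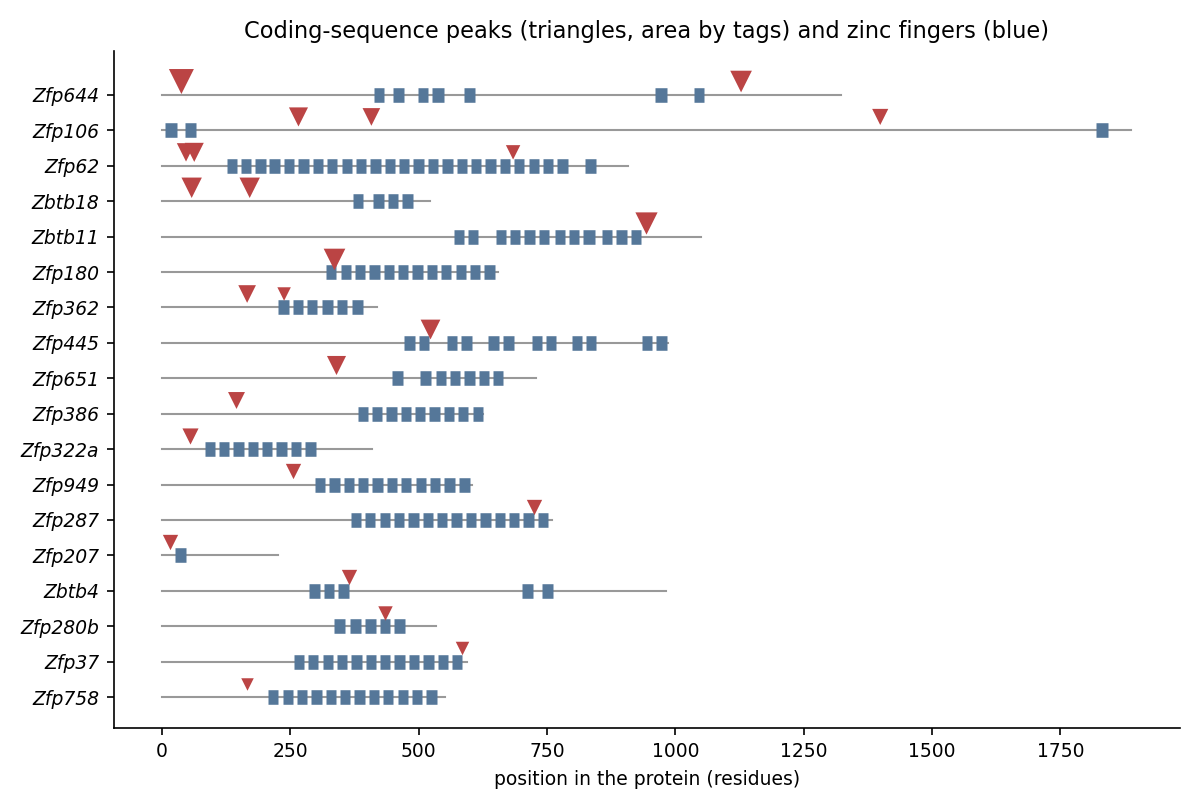
Position of CDS peaks along the proteins of zinc finger genes with fingers (x axis, residue) in 18 zinc finger genes (1 line per gene); blocks are fingers found by pattern and triangles are peak centres, their area by tags. Of the 25 peaks, 12 lie before the first finger, 11 between the first and the last and 2 after it.

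The share of exonic tags in the CDS differed from that of other genes by less than the spread between libraries. Over 13 libraries it was 26.3% ± 8.16 (SD) for the members and 27.4% ± 4.43 (SD) for the others, a mean difference within libraries of -1.17 ± 6.13 (SD) percentage points, with the members higher in 5 of 13. Without Zfp423 the difference was 2.15 ± 5.32 (SD), higher in 7 of 13, so its sign rested on that gene.

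The share of member peaks with a seed match had a counting interval that included the share of other peaks. Transcript sequence on the gene's strand was searched for the 7 bases complementary to miRNA positions 2 to 8, or to positions 2 to 7 followed by an A, of 36 brain miRNA families, in peaks with at least 50 bases of sequence. For miR-29 these are TGGTGCT and GGTGCTA, for miR-9-5p ACCAAAG and CCAAAGA, for miR-338 ATGCTGG and TGCTGGA, for miR-181 TGAATGT and GAATGTA, for miR-125 CTCAGGG and TCAGGGA, and for let-7 CTACCTC and TACCTCA. The 2 forms of a site overlap each other and sites of different families can overlap. Any match was found in 26 of 72 member 3′UTR peaks (36.1%, Wilson 95% interval 26.0% to 47.6%), against 40.9% of 7182 others. In the CDS it was 13 of 36 (36.1%, 22.5% to 52.4%), against 42.1% of 3657 others. With positions 2 to 8 only, the members were the higher ones, with 29.2% against 26.5% in 3′UTRs and 33.3% against 28.1% in the CDS, so the direction rested on the definition of a match.

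By family the counts were small. A miR-29 match was in 4 of 72 member 3′UTR peaks (5.56%), in Zfp362, Zbtb5, Zfp26 and Zfp36, against 1.63% of other 3′UTR peaks. In the CDS, miR-9-5p matches were in 3 of 36 (8.33%), in Zfp365, Zfp180 and Zfp386, against 7.79% of others, and let-7 matches in 0 of 36, against 3.83%. A miR-181 match, of a family known for sites repeated along finger arrays, was in 0 of 36 CDS peaks, against 1.20% of others. A count of 0 of 36 allows a share of up to 8.33%. The matched peak in Zfp644 had 10 sham, 4 contralateral and 8 ipsilateral tags, that in Zfp180 7, 2 and 7, that in Zbtb11 5, 5 and 7, and that in the Zbtb18 3′UTR 6, 8 and 11. A match describes letters, not binding by that miRNA. miR-23b-3p, miR-124-3p, miR-320-3p and miR-383-5p were not searched.

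Introns held most AGO tags of the zinc finger genes. Of 4805 tags in 161 peaks, 3066 (63.8%) lay in 47 intron peaks of 31 genes. No exonic peak at all was found in 26 of the 73 genes. Among all other peaks the intron share was 29.8% of tags, but that set includes peaks between genes. In it 19.9% of tags lay outside UTRs, CDS and introns, against 0.229% for the zinc finger genes. The intron shares therefore do not have a like base. Single peaks in Zfp217 (chr2:170141586-170141665, 1059 tags) and Zfp790 (chr7:29824970-29825049, 913 tags) made up 64.3% of the intron tags. The intron share of the zinc finger genes thus rested largely on these peaks. Zfp217 is known as an oncogenic repressor. GENCODE M21 places no other gene over either peak.

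These intron tags lay largely in the libraries numbered 1, with 73.6% of member intron tags there against 66.2% of all intron tags and 50.9% of all tags. The Zfp217 peak had 31.2 to 40.7 per 10000 peak tags in those libraries and a median of 12.6 in the other 10 (range 0 to 31.3). The Zfp790 peak had 33.9 to 42.4 there and a median of 5.94 in the other 10 (0 to 18.4), so its ranges did not overlap. The intron peak of Zfp772 had 114 tags, 85.1% of them in the libraries numbered 1. An intron peak of Zbtb16, chr9:48737904-48737983, had 98 tags, 80.6% of them in the libraries numbered 1. What sets these libraries apart was not tested.

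**Figure D5:**
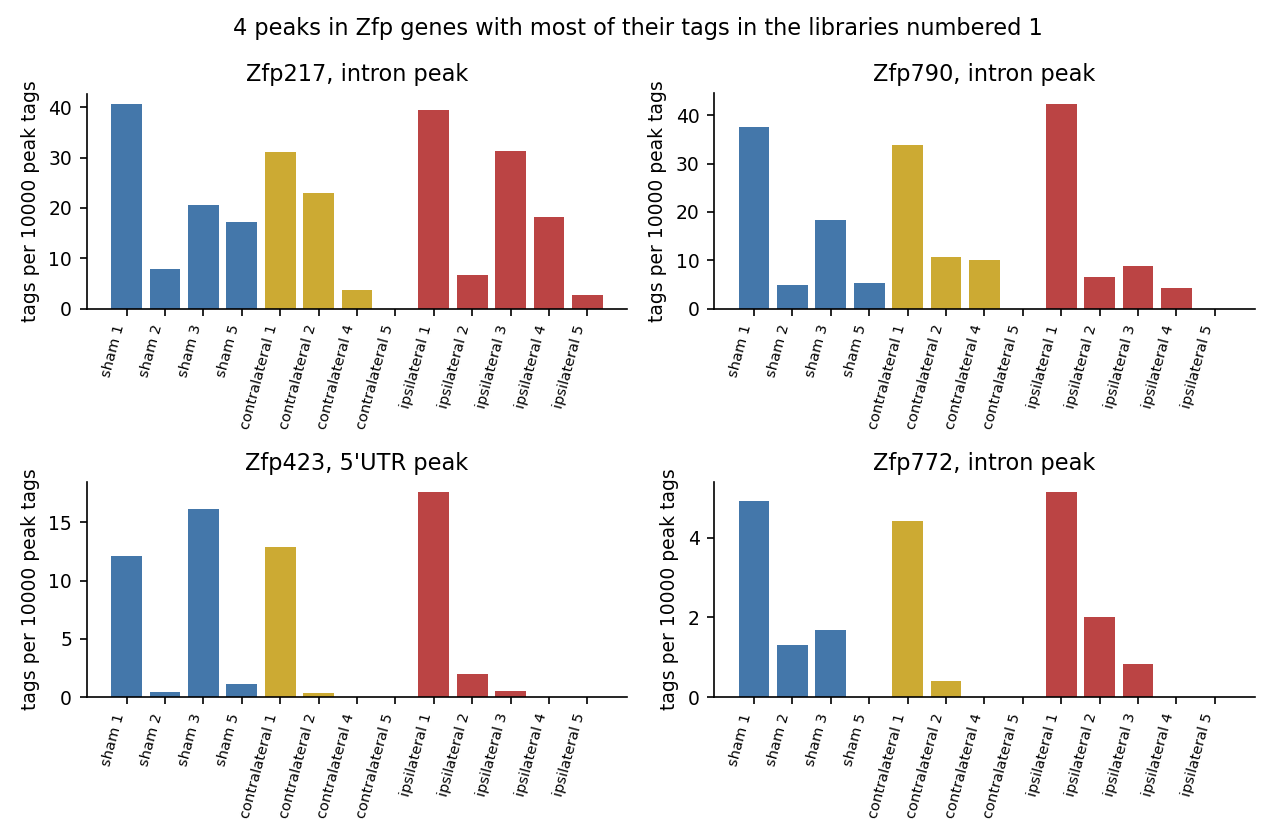
Tags per 10000 peak tags of the library (y axis, its own scale in each panel) in 4 peaks of Zfp217, Zfp790, Zfp423 and Zfp772, by library (x axis). The 3 libraries numbered 1 hold the highest bars for Zfp790 (33.9 to 42.4) and Zfp772, while sham replicate 3 is as high as they are for Zfp423 and ipsilateral replicate 3 (31.3) lies between them for Zfp217.

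No gene of 2 related lists was called. Of 111 other C2H2 transcription factor genes, among them Klf, Egr and Sp genes, 33 had exonic tags (1484 in all), 5 were tested and 0 were called in either direction in each comparison by edgeR. The most covered were Klf9 (293 tags), Klf13 (205), Peg3 (114) and Hivep2 (105). Klf9, a glucocorticoid-responsive repressor, had 15.7 ± 2.80 (SD, n = 4), 14.7 ± 1.73 (SD, n = 4) and 14.3 ± 8.67 (SD, n = 5) per 10000 in sham, contralateral and ipsilateral libraries. By mean share, 10 of the 33 were higher and 23 lower for ipsilateral against sham, and 13 higher and 20 lower for ipsilateral against contralateral. For contralateral against sham 17 were higher and 15 lower. Over all genes with exonic tags, 46.7%, 50.4% and 46.1% were higher in these comparisons. Of 28 partners of KRAB and BTB proteins, 10 had exonic tags (473), 1 was tested and 0 were called. Among them were Ncor1 (137), a corepressor bound by BTB proteins, Cbx5 (107) and Chd4 (36). Trim28, the corepressor bound by KRAB domains, had no exonic peak.

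Exonic tags were found on markers of neurons, astrocytes and oligodendrocytes, while some defining markers of each were at 0. Of 13 neuron markers 10 had exonic tags, taking 2.85% to 3.36% of exonic tags in sham, 3.02% to 3.65% contralateral and 1.78% to 3.51% ipsilateral. Single neuron markers ran in opposite directions between the sham and ipsilateral means, with Camk2a at 99.0 and 55.2 per 10000 and Snap25 at 27.4 and 61.3. Of 12 astrocyte markers 10 had tags, with 2.92% to 3.71%, 3.37% to 4.77% and 2.30% to 3.77%. Of 12 oligodendrocyte markers 5 had tags, with 0.397% to 0.542%, 0.400% to 0.618% and 0.109% to 0.461%. Among defining markers, Rbfox3, Gfap, Aldh1l1, Mog and Olig2 had 0 exonic tags. Microglia markers had tags in 1 of 12 (Csf1r, 24), vascular markers in 2 of 12 (Pdgfrb, 19, and Flt1, 8) and blood markers in 1 of 11 (Hbb-bs, 23), with Cx3cr1, P2ry12, Cldn5 and Pecam1 at 0. The part of cell makeup in the member values was not tested.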

How the data were processed

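AGO CLIP footprints from mouse cortex were cloned by Br-dU incorporation and bead capture and read as 50 base single-end reads, per the labels' protocols. Values are counts of tags in each peak and miRNA as deposited, whole and without scaling. Reads were placed on mm10 with Novoalign, per the submitters' processing notes. For the peak caller, duplicate collapsing and counting over overlapping peaks, the method was not given in the sources used here. Gene and region labels are the deposited ones, and 1 row without a position (44 tags) was left out.

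Exonic peaks were summed per gene. Groups came from the labels and were compared over libraries with edgeR 4.0.16 (limma 3.58.1, R 4.3.3): filterByExpr, TMM factors, glmQLFit and glmQLFTest on all 13 libraries in 1 fit, with no block, and Benjamini-Hochberg adjustment over all tested genes at 0.05. DESeq2 1.42.0 was an alternative. Exact permutation tests used SciPy 1.17.1 on shares of exonic tags, with Python 3.11.15, numpy 2.4.6 and pandas 2.3.3. Fits were tested on simulated data. Exonic tags per library ran from 2750 to 27542, so 1 tag was worth 0.363 to 3.64 per 10000. Sequence came from GENCODE M21 on GRCm38 and RefSeq miRNAs. Fingers and KRAB motifs were found by pattern in translated transcripts.

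The members and the lists (other C2H2 factors, partners of KRAB and BTB proteins, and markers of neurons, astrocytes, oligodendrocytes, microglia, vessels and blood) were chosen with earlier results of these data known. Named genes were the members that edgeR tested, the 15 with the most exonic tags and the 8 with the most CDS tags. Replicate numbers pair libraries through a shared day of surgery, per the labels. Over 11 pairs of libraries with the same number, deviations from the group means correlated with a median of 0.259 (-0.012 to 0.542), 10 over 0.1, against a median of -0.077 in 45 pairs with different numbers. Alternatives were other scaling factors, no filter, all peaks, groups fitted alone, a replicate block, leaving out libraries, and other seed and finger rules. In all, 7 alternatives were chosen after seeing the data, among them counting overlapping peaks once.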

Additional observations from a re-analysis of the deposited data

Results flagged for a closer look

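A library was set apart where its gap to the nearest other library, over the range of its group, passed Dixon's 95% critical value. Of 65 groups checked 8 had such a library, and chance gives about 1 in 20. The share of all the zinc finger genes was 123 per 10000 exonic tags in ipsilateral replicate 1 and 59.9 to 76.0 in the other ipsilateral libraries. For Zfp423 it was 56.2 in ipsilateral replicate 1 (others 0 to 2.91) and 30.9 in contralateral replicate 1 (others 0 to 0.667). Both are libraries numbered 1, which also had the highest share of tags outside exons, and the cause was not tested. Zbtb18 had 8.16 in contralateral replicate 5 (others 5.26 to 5.45), and Zbtb7a 4.87 in sham replicate 2 (others 2.36 to 2.75). Both of these values rest on few tags.

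The remaining 3 rest on even fewer tags. Zfp62 had 0.415 in ipsilateral replicate 2, where the other ipsilateral libraries had 0. Zfp180 had 0.726 in contralateral replicate 1, where the others had 0, and 6.28 in ipsilateral replicate 4, where the others had 0 to 0.850.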

How the results depend on the processing

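No member was called under any alternative to the filtered edgeR fit (range 0 to 0 leaving out each library), nor with DESeq2 or the replicate block. These fits tested few members, with 2 tested without ipsilateral replicate 1 and 1 without the 3 libraries numbered 1. Zfp423 was not tested in those 2 settings. In the fit without the filter, Zfp423 was called when contralateral replicate 1, ipsilateral replicate 1 or all 3 libraries numbered 1 were left out, with the values given for that gene. Over all genes, calls for ipsilateral against sham, ipsilateral against contralateral and contralateral against sham were 1, 0 and 0, against 7, 6 and 0 with DESeq2, 1, 4 and 0 with the replicate block, 11, 10 and 0 without ipsilateral replicate 1 and 0, 0 and 0 with overlapping peaks counted once. Within replicate numbers (replicate block), the mean log2 ratios of the zinc finger share were -0.16, 0.06 and 0.14. Leaving out each library gave -0.37 to -0.03, -0.23 to 0.10 and -0.26 to -0.0021.

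Signs turned for Zfp423 in ipsilateral against sham (0.65, 0.17, 0.18, 0.18, 0.10 and 0.0056 without sham replicates 1 and 3 and ipsilateral replicates 2, 3, 4 and 5, lowest -0.58 without sham replicate 2) and in contralateral against sham (0.012 without sham replicate 1, lowest -5.49 without contralateral replicate 1). They turned for Zbtb16 with all peaks of the gene (0.037 for ipsilateral against contralateral, -0.33 for contralateral against sham) and without contralateral replicate 5 (-0.16, contralateral against sham, highest 0.35). Zfp365 contralateral against sham was -0.090 without sham replicate 2 and -0.06 without contralateral replicate 5. Zfp664 ipsilateral against contralateral was 0.0010 with overlapping peaks counted once, and 0.17, 0.05, 0.11 and 0.13 without contralateral replicates 1 and 5 and ipsilateral replicates 2 and 5, with a lowest value of -0.50. Zfp248 ipsilateral against contralateral was 0.59 without contralateral replicate 2 and at lowest -0.57. The cause was not tested. In a further 12 values, of the zinc finger share and the CDS difference, the sign turned by less than the spread, among them the CDS difference, from -1.17 to 2.15 points without Zfp423. Members not overlapping between contralateral and sham went from 1 to 4 without the libraries numbered 1, and all genes from 2.64% to 8.97%. The other 671 values kept their direction and side of the threshold. By depth, 3 of 47 members passed the filter, against 436 of 3365 genes.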
